A study of Sus scrofa with 6 samples.

Results

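Ribosomal protein genes were described in 3 tissues, hypothalamus, pituitary and ovary, of sows in estrus or in anestrus. The genes were those whose pathway annotation in the deposited tables held the whole entry Ribosome, which applied to 94 of 19465 genes. By name, 63 were assigned to the cytosolic ribosome, 38 to its large and 25 to its small subunit, and 31 to the mitochondrial ribosome, 23 to its large and 8 to its small subunit. RSL24D1, an assembly factor, was counted with the large cytosolic subunit throughout. A mean normalised read count of at least 10 in the tissue was asked for, and the same 85 genes reached it in each of the 3 tissues, 55 of them cytosolic and 30 mitochondrial. The count just inside that limit was that of RPLP2 in the hypothalamus, at 12, and the count just outside it was that of RPL36A in the same tissue, at 0.984.

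All animals were Landrace x Large White primiparous sows, that is, sows after a first litter. The 3 estrous sows were in normal estrus, and the labels ascribe the anestrus of the other 3 to inactive ovaries. Each combination of tissue and state is represented by 1 library, 6 in all, and the labels do not tell whether RNA of several sows went into it. The age of the sows is not given in the sources used here. No difference between states could therefore be tested within a tissue, "higher" and "lower" describe the anestrous library against the estrous library of the same tissue, and 95% intervals cover counting error only. The libraries held between 15314325 and 17384789 reads assigned to genes. Markers of each labelled tissue were present, with the 6 anterior pituitary hormone genes at 4110500 and 4644150 normalised counts in the pituitary and the 4 granulosa cell genes that were found at 92664 and 16702 in the ovary. The 5 neuron genes that were found stood at 47119 and 67543 in the hypothalamus.

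A ribosome is built from ribosomal RNA and a fixed set of proteins, usually 1 copy of each, so cells make these proteins in matched amounts. Many of the messenger RNAs carry a pyrimidine tract at the 5′ end, the TOP motif, through which mTOR signalling and the RNA-binding protein LARP1 set their translation and stability. Mitochondria have a separate ribosome, whose proteins are encoded in the nucleus, made in the cytosol and imported. In the ovary, growing follicles and luteal tissue are known for a high rate of protein synthesis, and the pituitary secretes large amounts of peptide hormones.

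The cytosolic genes took a smaller share of the reads of the anestrous ovary library than of the estrous one. They held 5.78% of reads in estrus (Wilson 95% interval 5.77 to 5.79) and 3.59% in anestrus (3.58 to 3.6). The pituitary shares were 3.71% and 3.81%, those of the hypothalamus 1.41% and 1.26%. The ovary thus had the largest share among the 3 estrous libraries, while in anestrus its share was below that of the pituitary. A few genes dominated the libraries to different degrees. The top 10 genes by reads made up 8.55% and 11.5% of the ovary libraries, 33.3% and 35.9% of the pituitary libraries and 20.3% and 21.9% of the hypothalamus libraries, and none of them was a ribosomal protein gene. The top 10 were taken in each library by itself, so they can differ between the states. With each library's own top 10 taken out of its total, the cytosolic share was 6.32% in estrus and 4.06% in anestrus for the ovary. It was 5.57% and 5.95% for the pituitary, and 1.77% and 1.61% for the hypothalamus. For the mitochondrial genes the shares were 0.169% and 0.142% (ovary), 0.120% and 0.116% (pituitary) and 0.122% and 0.118% (hypothalamus).

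**Figure D1:**
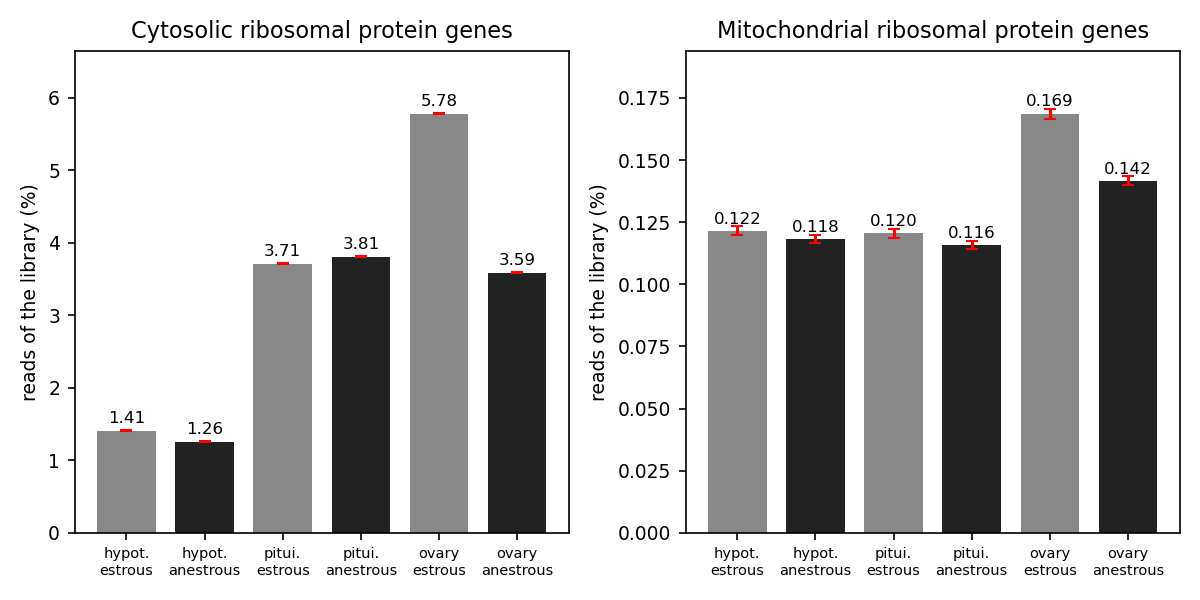
Share of each library's reads, in percent, on cytosolic (left) and mitochondrial (right) ribosomal protein genes, with estrous libraries in grey and anestrous libraries in black, and Wilson 95% counting intervals in red. The cytosolic share in the ovary was 5.78% in the estrous and 3.59% in the anestrous library, while the pituitary pair stood at 3.71% and 3.81%.

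Gene by gene, cytosolic ribosomal protein genes were lower in the anestrous ovary library as a broad group, by factors that differed between genes. The median log2 fold of the 55 genes was -0.46 (quartiles -0.61 and -0.31), where the log2 fold sets the anestrous against the estrous normalised count, with 1 added to both. Over all 13193 ovary genes that reached the limit of 10, the median was 0.01 and the quartiles -0.45 and 0.51. The summed normalised count of the cytosolic genes was 1.40-fold lower. Of the 55, 48 lay below 0, and 44 were at least 1.2-fold lower, which is 80% of them against 34.2% of all genes. Only 2 were at least 1.2-fold higher (36.1% of all genes), namely RPL27A and RPL22L1. No cytosolic gene was 2-fold lower (10.7% of all genes) and 1, RPL27A, was 2-fold higher (13.6%). The lack of 2-fold lower genes depends on the scaling. With the libraries scaled to equal totals, RPL34, RPL38, RPL36, RPL35A, RPS9, RPL15 and RPS27A were past 2-fold lower, at log2 folds from -1.16 to -1.01. The share of all genes past 2-fold was not recomputed for that scaling. All 44 lower genes also had a counting interval that left out equal levels. Past 1.2-fold with such an interval were 29.8% of all genes in this direction and 31.9% in the other. Of the 55, 48 had a mean of at least 1000, where a 1.2-fold difference nearly always meets that condition, so it adds little here. Shares of all genes, here and below, cover every gene with a mean of at least 10 and were not matched for count. Large and small subunits had similar values, with medians of -0.48 over 31 and -0.44 over 24 genes.

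The lowest folds in the ovary were those of RPL34, RPL38, RPL36, RPL35A and RPS9. RPL34, a protein of the large subunit, had 16127 reads in the estrous and 7638 in the anestrous library, a 1.95-fold lower normalised count (1.9 to 2.0). RPL38, another small protein of the large subunit, went from 7012 to 3555 reads (1.82-fold lower, 1.75 to 1.9). RPL35A, whose human gene is among those mutated in Diamond-Blackfan anemia, went from 14408 to 7400 reads (1.8-fold lower, 1.75 to 1.85). In the other tissues these 3 genes had log2 folds between -0.17 and 0.15, so their low values were seen in the ovary pair.

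Genes with many reads were lower in the ovary as well, some of them by less than the median gene. RPL4, which reaches into the exit tunnel of the large subunit, had 41696 and 29544 reads in the ovary (1.30-fold lower, 1.28 to 1.32). RPL6, of the large subunit, had 38867 and 25364 reads (1.41-fold lower, 1.39 to 1.44), and RPS4X, of the small subunit, 29948 and 20658 (1.34-fold lower, 1.31 to 1.36). RPL3, near the catalytic centre, had 37152 and 28255 reads (1.21-fold lower, 1.2 to 1.23). RPS6, the small subunit protein that S6 kinases phosphorylate, had 25767 and 19217 reads (1.24-fold lower, 1.21 to 1.26). Both RPL3 and RPS6 lay above the upper quartile of the cytosolic log2 folds, that is, among the smaller differences. RPL5 and RPL11, which join the subunit together with the smallest ribosomal RNA, had 28918 and 18179 and 29490 and 18172 reads. Their ratio to each other in the ovary was 1.02 in estrus and 1.00 in anestrus, so both were lower by nearly the same factor, 1.47-fold and 1.5-fold.

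**Figure D2:**
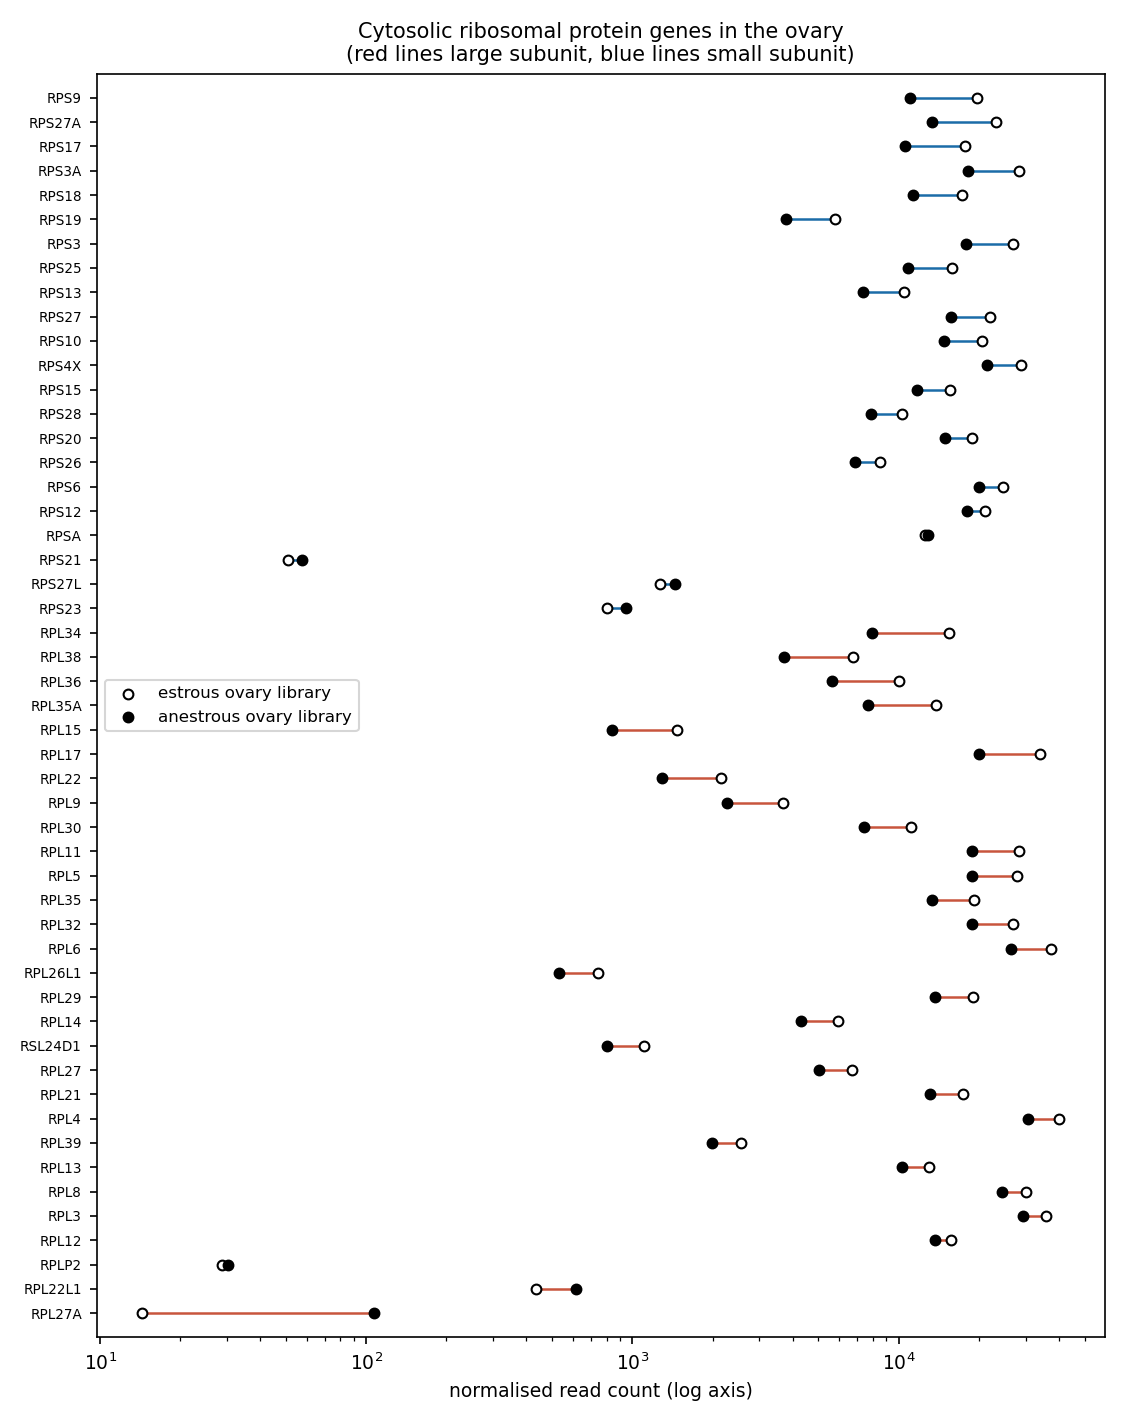
Normalised read counts (log axis) of 51 of the 55 cytosolic ribosomal protein genes in the estrous (open circles) and the anestrous (filled circles) ovary library, ordered by log2 fold within the small and the large subunit. The filled circle lies to the left of the open circle in 44 of the 51 genes, and RPL27A, RPL22L1, RPS23, RPS27L, RPS21, RPSA and RPLP2 are the exceptions, of which RPS27L, RPS21, RPSA and RPLP2 turn lower when the libraries are scaled to equal totals. Gene lengths were not used, so levels of different genes are not comparable.

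The anestrous ovary library also differed from the estrous one in its cell markers. All 4 granulosa cell genes found of 5 listed were lower, and their summed normalised count went from 92664 to 16702. Of 5 theca and luteal genes, 4 were lower (128296 to 59837 in sum) and HSD3B1 was higher, and all 4 oocyte genes were lower (2078 to 762). Of 6 macrophage genes, 4 were at least 1.2-fold higher (9319 to 18527 in sum), with CD163 at 11 reads and 1 read. None of these markers was at 0 in both ovary libraries. Their part in the lower ribosomal protein counts was not tested, and in whole tissue a loss of a cell type cannot be told apart from less RNA per cell.

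In the pituitary, most cytosolic ribosomal protein genes stood slightly higher in the anestrous library. Their median log2 fold was 0.14 (quartiles 0.04 and 0.23), against -0.00 for all 13144 genes (quartiles -0.26 and 0.22), and their sum was 1.11-fold higher. Of the 55, 46 lay above 0. At least 1.2-fold higher were 12 of 55, which is 21.8% and near the 21.3% of all genes, and 2 were at least 1.2-fold lower (24.4% of all genes), RPL15 and RPL27A. With the counting interval as a further condition, 11 were higher and 2 lower, against 15.7% and 17.5% of all genes. At 2-fold, 1 gene (RPL27A) was lower and none higher, where all genes gave 4.23% and 2.27%. The size and the counts depend on the scaling. With the libraries scaled to equal totals, the median was 0.03, only 32 of 55 lay above 0, and 3 were at least 1.2-fold higher. The share of all genes past 1.2-fold was not recomputed for that scaling. The median of all genes also moved, by -0.11, and the cytosolic median stayed 0.14 above it.

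Among genes with a mean of 50 or more, RPS23, RPL11 and RPL3 had some of the highest pituitary folds. RPS23, a protein of the decoding centre, had 714 and 905 reads (1.34-fold higher, 1.22 to 1.48). RPL11 had 15440 and 18986 reads (1.30-fold higher, 1.28 to 1.33) and RPL3 24246 and 29486 (1.29-fold higher, 1.27 to 1.31). RPL11 and RPL3 were thus higher in the anestrous pituitary and lower in the anestrous ovary. This opposite sign was found in 42 of 55 cytosolic genes (76.4%), which lay above 0 in the pituitary and below 0 in the ovary, as did 25.6% of the 12214 genes over the limit in both tissues. As 46 of 55 lay above 0 in the pituitary and 48 of 55 below 0 in the ovary, the 42 largely restates those 2 shifts. At least 1.2-fold both ways were 7 of 55 (12.7%) against 7.44% of all genes. With equal library totals the counts were 30 of 55 (54.5%, all genes 22.7%) and 1 of 55 (1.82%, all genes 5.67%). Both counts thus depend on the scaling, and the smaller one then lies below the share of all genes. The pituitary hormone genes also differed between these libraries, in both directions. Their summed counts went from 4110500 to 4644150, with PRL, the prolactin gene, at 12.6% of reads in estrus and 15.4% in anestrus and FSHB, of follicle-stimulating hormone, at a log2 fold of 2.02. POMC, the precursor of corticotropin, had 808312 and 328682 reads (-1.21) and TSHB, of thyrotropin, 4783 and 2322 (-0.96). Their part in the ribosomal protein values was not tested.

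In the hypothalamus most cytosolic genes lay close to 0. The median log2 fold was -0.07 (quartiles -0.12 and 0.04; all 13587 genes -0.00, quartiles -0.23 and 0.20). Past 1.2-fold were 4 of 55 in each direction, 7.27% each way against 19.8% and 22.1% of all genes. Of the 55, 46 had a mean of at least 1000, and the shares of all genes were not matched for count. With equal library totals the median was -0.16, 3 were higher and 9 lower, and the median of all genes moved by -0.09. The shares of all genes past 1.2-fold were not recomputed for that scaling. None was 2-fold different in either direction, where all genes gave 1.99% higher and 2.61% lower. With the counting interval as a further condition, 2 were higher and 3 lower (14.8% and 15% of all genes). The 3 lower genes were RPL15, RPS9 and RPSA. RPS9, of the small subunit, had 4913 and 3479 reads (1.37-fold lower, 1.31 to 1.43), and RPSA, also known as the laminin receptor, had 3797 and 3001 (1.23-fold lower, 1.17 to 1.29). The 2 higher ones were RPS23, with 329 and 432 reads (1.36-fold, 1.17 to 1.57), and RSL24D1, with 1986 and 2409 (1.25-fold, 1.18 to 1.33). In this pair of libraries 5 of 5 neuron genes were at least 1.2-fold higher and 4 of 4 myelin genes lower (258882 to 201240 in sum). Of 3 choroid plexus genes 2 were lower and 1 higher (2538 to 1159), and of 3 astrocyte genes 1 was lower and none higher (257320 to 187601). Lower were also 1 of 5 anterior pituitary genes, with none higher (6909 to 3202), and 2 of 2 lymphocyte genes (435 to 204). The part of these shifts in the ribosomal protein values was not tested.

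**Figure D3:**
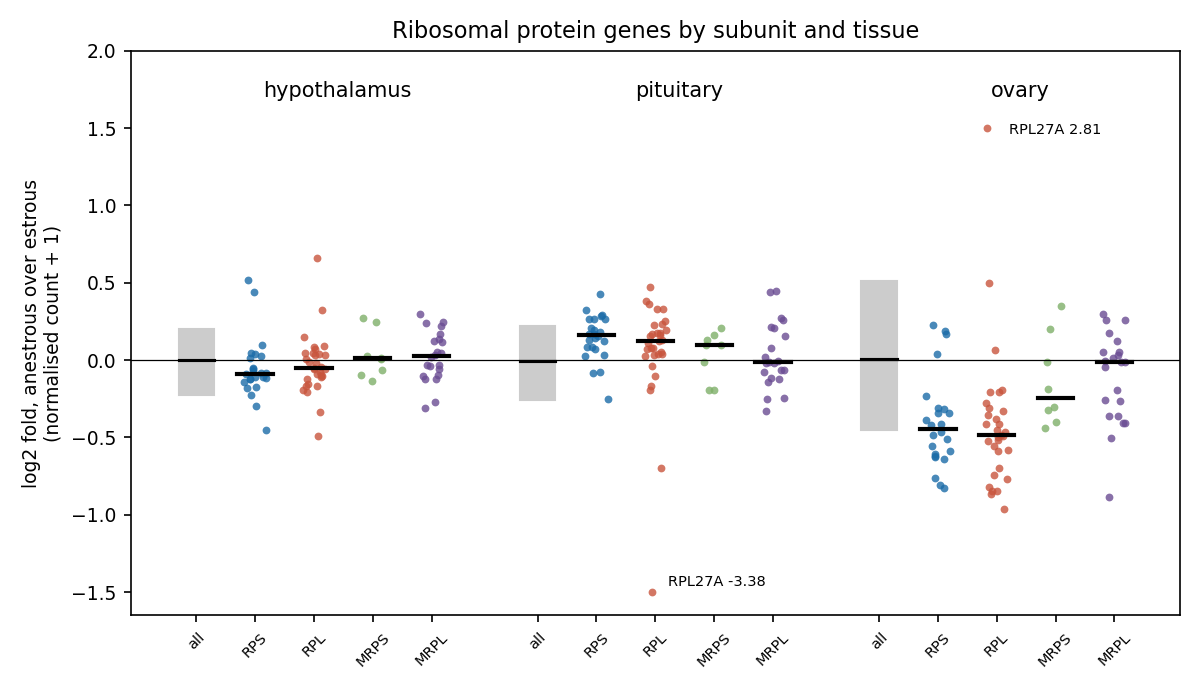
Log2 fold (anestrous over estrous normalised count, each plus 1) of each ribosomal protein gene with a mean of at least 10, by tissue and subunit, with black bars at medians. RPS and RPL are the small and large subunit of the cytosolic ribosome, MRPS and MRPL those of the mitochondrial one, grey boxes span the quartiles of all genes of that tissue, and RPL27A in pituitary and ovary is drawn short of its value, which is written beside it. Both cytosolic subunits lie low in the ovary, at -0.44 and -0.48, and close to 0 in the other tissues.

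Several cytosolic genes departed from the rest of the ribosome. RPL15, a large subunit protein, was the only cytosolic gene at least 1.2-fold lower in all 3 tissues, a pattern that 2.9% of the 11897 genes over the limit in all tissues showed (2.08% showed the opposite). Its reads were 1282 and 882 (hypothalamus), 1411 and 822 (pituitary) and 1536 and 803 (ovary), with log2 folds of -0.49, -0.70 and -0.82. All 3 anestrous values lay below all 3 estrous ones, also as RPM (reads scaled to a common library total, with no size factor), at 47.3 to 55.8 against 82.9 to 99.2. RPS9 lay off the cytosolic median of its tissue by similar amounts, -0.38, -0.39 and -0.36 on the log2 scale, in hypothalamus, pituitary and ovary. With equal library totals RPS9, like RPL15, was at least 1.2-fold lower in all 3 tissues, at -0.54, -0.36 and -1.03. That RPL15 was the only such gene thus depends on the scaling. RPS23 took the other side and lay above 0 in all 3 tissues, with 837 and 905 reads in the ovary (1.17-fold higher, 1.06 to 1.29). RPSA had 13060 and 12395 reads in the ovary (ratio of normalised counts 1.03, 1.00 to 1.05), where its log2 fold was 0.04, or -0.16 with equal library totals.

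For 3 paralogs the ratio to the partner gene was higher in the anestrous ovary library, by different amounts. RPL22L1, a paralog known in mice to take the place of RPL22 in the large subunit, had 452 and 589 reads (1.41-fold higher, 1.25 to 1.6), whereas RPL22 had 2247 and 1238 (1.68-fold lower, 1.56 to 1.8). The ratio of RPL22L1 to RPL22 reads, which needs no scaling, was 0.201 in the estrous and 0.476 in the anestrous ovary, a 2.37-fold difference (2.05 to 2.72). In the hypothalamus the same comparison gave 0.772 (0.541 to 1.10), and in the pituitary 1.12 (0.943 to 1.34), both with intervals that hold 1. RPS27L, a paralog of the small subunit protein RPS27, behaved in the same direction. Its ratio to RPS27 was 0.0575 and 0.0917 in the ovary, a 1.59-fold difference (1.48 to 1.72), but 0.816-fold (0.728 to 0.915) in the pituitary. RPL26L1 had 772 and 507 reads in the ovary, and its ratio to the RPL26 row outside the entry was 0.0322 and 0.0363, a 1.13-fold difference (1.01 to 1.26). The same ratio was 1.21-fold as large in the anestrous hypothalamus (1.07 to 1.37) and 0.873-fold in the pituitary (0.785 to 0.971). The difference between tissues in these ratios was not tested.

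RPS27A, which encodes ubiquitin fused to a small subunit protein, had 24237 and 12786 reads in the ovary (1.75-fold lower, 1.71 to 1.79) and log2 folds of -0.12 in the hypothalamus and 0.03 in the pituitary. RSL24D1, an assembly factor of the large subunit rather than a part of the finished ribosome, had log2 folds of 0.32 in the hypothalamus, -0.17 in the pituitary and -0.45 in the ovary.

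**Figure D4:**
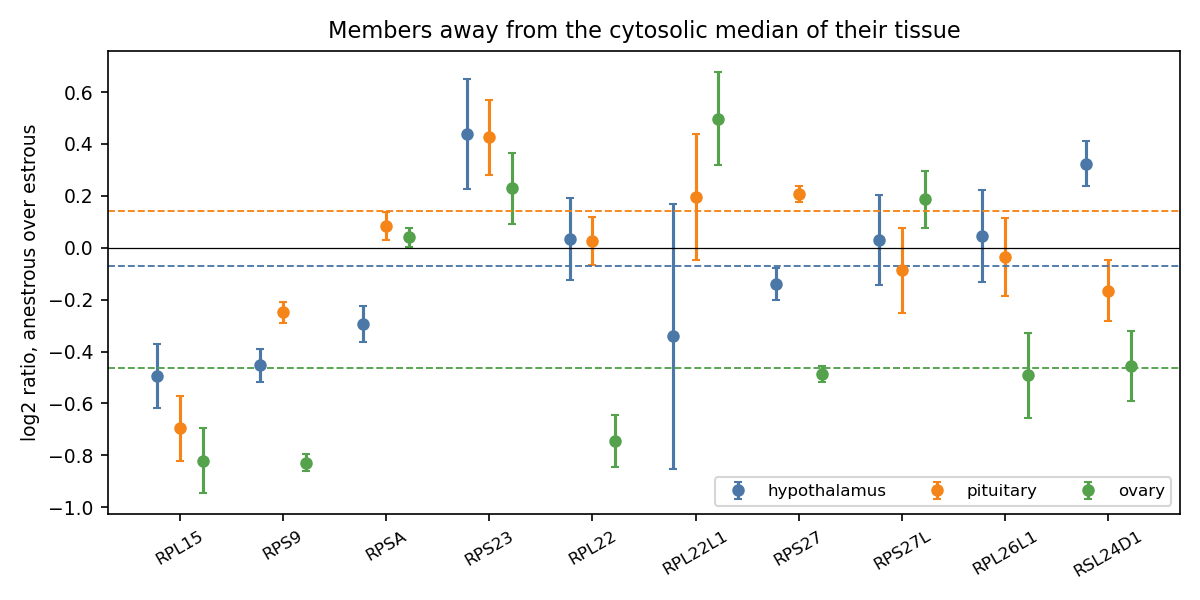
Log2 ratio of normalised counts, anestrous over estrous, of 10 genes counted with the cytosolic ribosome, in the 3 tissues. Bars are 95% counting intervals, and dashed lines of the same colour mark the cytosolic median of each tissue. RPL15 lies below 0 in every tissue, and RPL22L1 and RPS27L lie above 0 in the ovary while RPL22 and RPS27 lie below, although RPS27L is at -0.01 with equal library totals.

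RPL27A had by far the widest swing, on few reads. Its reads were 27 and 42 (hypothalamus), 87 and 7 (pituitary) and 15 and 103 (ovary). Its normalised count was 11.7-fold lower in the anestrous pituitary (5.46 to 30) and 7.44-fold higher in the anestrous ovary (4.31 to 13.8). In the pituitary it reached the limit of 10 through its estrous library. In the authors' deposited table it had an adjusted p-value of 0.005682 in the pituitary and 0.5868 in the ovary, and it was the only ribosomal protein gene with an adjusted p-value of at most 0.05 in any of the 3 tables. Over all genes with such a value there, 0.739%, 0.635% and 0.676% passed in hypothalamus, pituitary and ovary. The row had at most 103 reads in any library, and how the authors' counting treated near-identical copies is not given in the sources used here. RPLP2 and RPS21 were also low, with at most 37 and 55 reads in any library, and intervals of their ratios held 1 in all 3 tissues.

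Some rows of the entry were empty while a row of the same name elsewhere was full. The 9 genes under the limit of 10 in every tissue, RPL36AL, RPL10, RPS16, RPL26, RPL37A, MRPL33, RPL36A, RPLP1 and RPL18, had at most 2 reads in any library. Rows outside the entry carried the names RPLP1, RPLP2, RPS16 and RPL26, the first 3 by the gene name table, and had between 1014 and 27870 reads in a library. The RPL26 row, for example, had 23975 and 13982 reads in the ovary and a log2 fold of -0.66, and the RPLP1 row, a protein of the ribosomal stalk, 27870 and 19293 and -0.41. In the ovary all 4 rows were at least 1.2-fold lower, as were 34.2% of all genes. With RPL7L1, a further cytosolic name outside the entry that no row in it carries, the median of the 5 rows was -0.41 (-0.23 in the hypothalamus and 0.16 in the pituitary). RPL7L1 itself had a log2 fold of 0.19 in the ovary.

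Mitochondrial ribosomal protein genes had medians close to 0 in every tissue, the ovary included. Their median log2 fold over 30 genes was -0.03 in the ovary, -0.01 in the pituitary and 0.02 in the hypothalamus, where it turned to -0.07 with equal library totals. At the 1.2-fold limit, 11 were lower and 2 higher for the ovary, 1 and 3 for the pituitary, and 2 and 2 for the hypothalamus. Over all genes the lower and higher shares were 34.2% and 36.1%, 24.4% and 21.3%, and 22.1% and 19.8% in the same order. All of these counts but the 11 are thus well below the shares of all genes. With equal library totals the ovary median was -0.23, when the median of all genes moved by -0.20. The share of 11 in 30 lies near the 34.2% of all genes in the ovary. By subunit, the ovary median was -0.01 over 22 large subunit genes and -0.24 over 8 small subunit genes. At least 1.2-fold lower were 7 of the 22 (31.8%) and 4 of the 8 (50%). A further 28 mitochondrial rows outside the entry had ovary, pituitary and hypothalamus medians of -0.16, 0.05 and -0.00, and 11 of them were at least 1.2-fold lower in the ovary.

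Within the mitochondrial ribosome the genes spread in both directions in the ovary. MRPL22 went from 536 to 268 reads (1.85-fold lower, 1.59 to 2.15), and MRPL3, with 1697 and 1102 reads, was 1.42-fold lower (1.32 to 1.53). Both are large subunit proteins, and MRPS5, MRPL14 and MRPL13 came next, with log2 folds of -0.44, -0.41 and -0.40. On the other side, MRPS10 had 912 and 1074 reads (1.28-fold higher, 1.17 to 1.39) and MRPL28 1805 and 2050 (1.23-fold higher, 1.16 to 1.31). MRPL4 lay above 0 in all tissues, though at -0.03 in the ovary with equal library totals, with 897 and 1068, 637 and 817, and 1107 and 1153 reads in hypothalamus, pituitary and ovary and log2 folds of 0.30, 0.44 and 0.17. MRPL10, which anchors the stalk of the mitochondrial large subunit, had 887 and 1141 reads in the pituitary (1.36-fold higher, 1.25 to 1.49) but a log2 fold of -0.01 in the ovary. MRPL36 was lowest in both the hypothalamus and the pituitary, at -0.31 and -0.33, and stood at 0.06 in the ovary.

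**Figure D5:**
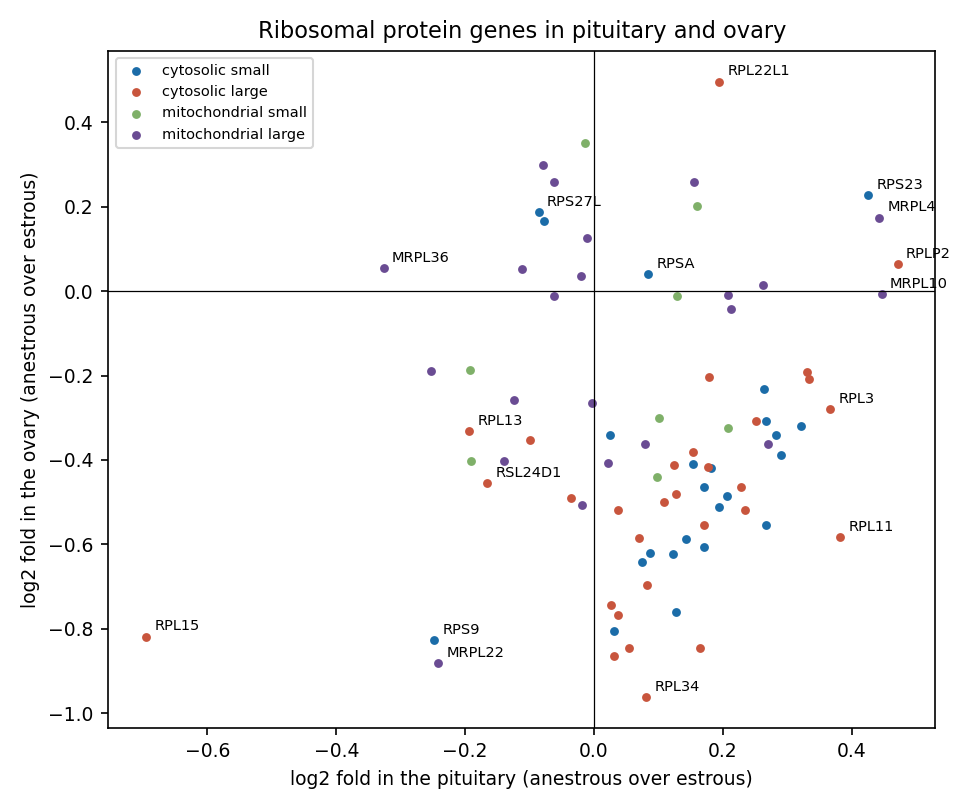
Log2 fold (anestrous over estrous) of 84 ribosomal protein genes in the pituitary (horizontal) and the ovary (vertical), coloured by subunit, with RPL27A left out because it lies far outside the axes. Most cytosolic genes fill the lower right quadrant, above 0 in the pituitary and below 0 in the ovary, and mitochondrial genes scatter around both axes. With equal library totals, which are not drawn, 30 of the 55 cytosolic genes had these signs.

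Which genes deviated was only loosely shared between tissues. Over the 54 cytosolic genes without RPL27A, the folds of pituitary and ovary had a Pearson correlation of 0.32, those of hypothalamus and pituitary one of 0.28 and those of hypothalamus and ovary one of 0.25. With RPL27A included, the same values were -0.71, -0.37 and 0.53, so that 1 gene turned the sign of the first 2. Rank correlations were 0.42, 0.12 and 0.12 without it and 0.34, 0.06 and 0.16 with it. These values describe genes that share libraries and counting, and carry no p-value. The mean count of a gene and its log2 fold had rank correlations of -0.26, 0.21 and -0.19 in hypothalamus, pituitary and ovary.

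Across tissues, RPM values were compared as a description, since each table was normalised separately and the tissues differ in their dominant genes. In estrus 53 of 55 cytosolic genes stood higher in the ovary than in the pituitary, with a median ratio of 1.53, whereas in anestrus 24 of 55 did and the median ratio was 0.973. The pituitary exceeded the hypothalamus by a median of 2.55 in estrus and 3.06 in anestrus. Mitochondrial genes differed less, with ovary to pituitary medians of 1.43 and 1.26 and pituitary to hypothalamus medians of 0.972 and 0.951. RPL15, RSL24D1 and RPL27A were among the genes with another order. RPL15 stood at 83.7, 82.9 and 99.2 RPM in the estrous hypothalamus, pituitary and ovary, and RSL24D1 at 130, 76.7 and 74.1, highest in the hypothalamus. RPL27A, on few reads, stood at 1.76, 5.11 and 0.969. By the mean of both states RPL22L1 had the widest range between tissues, with single libraries from 3.73 RPM in the anestrous hypothalamus to 35.8 in the anestrous ovary.

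Other genes of protein synthesis were read from lists, beside the shares of all genes at least 1.2-fold different, which in the ovary were 34.2% lower and 36.1% higher. Of 17 measured elongation factors and other genes with a known or likely TOP tract, 6 were lower (35.3%, near the share of all genes) and 2 higher (11.8%), with a median of -0.16. Of the subunits of elongation factor 1, EEF1G had 41523 and 28336 reads (log2 fold -0.44) and EEF1D was at -0.53, both past 1.2-fold, EEF1A1 at -0.16 and EEF1B2 at -0.25, both short of it, while EEF2, the translocation factor, was at 0.09. VIM was higher, at 0.54, and EIF4B at 0.43. Of 23 ribosome biogenesis genes 8 were lower (34.8%, near the share of all genes) and 2 higher (8.7%), with a median of -0.09. NOB1, the nuclease that finishes the RNA of the small subunit, was at -1.04 with 2150 and 964 reads, and FBL, the methyltransferase fibrillarin, at -0.73, but NPM1 was at 0.20 and BOP1 at 0.49. Of 11 genes of RNA polymerases I and III, 3 were lower (27.3%) and none higher.

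Regulators of ribosomal protein messages went both ways in the ovary, with 4 of 13 at least 1.2-fold higher and 4 lower, 30.8% each way and below both shares of all genes. EIF4EBP1, a repressor of cap-dependent translation, had 839 and 2416 reads and a log2 fold of 1.64. LARP1, the TOP-binding protein, had 776 and 1093 reads and 0.61, and MTOR 0.36. The S6 kinase genes RPS6KB1 and RPS6KB2 were at -0.46 and -0.52, and MYC, a transcription factor that drives ribosome production, at -0.55 with 1635 and 1031 reads. In the pituitary MYC had 170 and 607 reads and a log2 fold of 1.91, and in the hypothalamus 269 and 205 and -0.34.

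In the pituitary the TOP list had a median of 0.13, close to that of the cytosolic ribosomal protein genes, with 4 of 17 higher (23.5%, all genes 21.3%) and 1 lower (5.88%, all genes 24.4%), and in the hypothalamus it was -0.03, with none higher and 2 lower (11.8%, all genes 22.1%). Biogenesis genes had medians of 0.05 and 0.03 there. Of the 10 measured genes of mitochondrial translation, 5 were at least 1.2-fold higher and 1 lower in the hypothalamus (median 0.25), where 19.8% of all genes were higher. In the pituitary 2 were higher and 2 lower, and in the ovary 1 was higher and 3 lower. TFB1M, which methylates the RNA of the small mitochondrial subunit, was lower in all 3 tissues, with 289 and 179, 284 and 164, and 441 and 258 reads and log2 folds of -0.64, -0.71 and -0.66. Of 7 ribosome rescue genes 4 were higher and 1 lower in the ovary (57.1% and 14.3%, all genes 36.1% and 34.2%), 3 lower and none higher in the pituitary (42.9%, all genes 24.4%), and 3 higher and none lower in the hypothalamus (42.9%, all genes 19.8%). Of 4 chaperones of ribosomal proteins none reached 1.2-fold in the ovary or the pituitary, and 1 was higher in the hypothalamus. Against 3 other pathway entries, the ovary median of all 85 ribosomal protein genes, -0.36, stood beside -0.26 for Spliceosome, where 41 of 82 genes were at least 1.2-fold lower (all genes 34.2%), -0.13 for Ribosome biogenesis in eukaryotes and -0.01 for Oxidative phosphorylation. The differences between the entries were not tested.

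A count model over the 3 tissues, with tissue as a block, gave no ribosomal protein gene an adjusted p-value of at most 0.05. It uses tissues in the place of replicates and is given as an alternative. In edgeR's quasi-likelihood test 0 of 14444 genes (0%) passed and 542 had an unadjusted p below 0.05, and DESeq2 called 46 of 16887 genes (0.272%). The smallest adjusted p-value of a ribosomal protein gene was 0.986 in edgeR and 0.487 in DESeq2.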

How the data were processed

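Whole-tissue RNA was sequenced with 1 library for each of 3 tissues and 2 states, from Illumina TruSeq RNA libraries, per the labels' protocols. TopHat2 2.1.0 was used, per the submitters' processing notes. Counter, genome build, annotation and use of strand are not given in the sources used here. Genes with overlaps, near-identical copies or pseudogenes, as many ribosomal protein genes have, are therefore uncertain. The deposited tables, 1 per tissue, hold for both libraries a normalised signal per gene, that is, reads over the size factor of the library. Per the file headers they also hold a raw and an adjusted p-value of the authors. DESeq is named per the labels. All values above 0 were whole multiples of the smallest within 0.01 of a read (100% of values), which gave back the reads. No column was without a sample (0).

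Log2 folds used a pseudocount of 1, and genes with a mean under 10 were left out. Ratios carry no pseudocount and have exact conditional Clopper-Pearson 95% intervals, while ratios of paralogs have log-normal ones. Intervals cover counting error only, as reads copied by PCR are not separate molecules. Limits of 1.2-fold and 2-fold are descriptions. With 1 library per group the states were not tested within a tissue. Symbols are those of the tables, and 44 of the 94 genes were also in a table of pig gene names, where 1 name differed (RPL10, there RPL10L).

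Named genes were, per tissue, the 5 highest and 5 lowest log2 folds with a mean of at least 50, cytosolic and mitochondrial apart, the 6 with the widest fold range and the 6 with the widest range of RPM between tissues, the 4 with most and 4 with fewest reads, fusion genes, paralogs, genes under the limit and listed genes. Of these, some are not reported here, and others, such as RPL5, RPL22 and RPS27, were chosen after their values were seen. The genes and lists were chosen with earlier results of these data known. Alternatives were equal totals, a trimmed mean of log ratios (trims of 30% and 5%), a pseudocount of 5, limits of 0 and 200, a counting interval or authors' adjusted p-value as a further condition, and a count test with edgeR 4.0.16 and DESeq2 1.42.0 in R 4.3.3. The steps were tested on simulated data.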

Additional observations from a re-analysis of the deposited data

Results flagged for a closer look

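The libraries of the ovary and the pituitary moved in opposite directions for the cytosolic ribosomal protein genes. The median log2 fold of the ovary minus that of the pituitary was -0.61, and the change in the share of reads on all 94 genes differed by -2.31 percentage points. With 1 library per tissue and state these differences were not tested. Single genes whose counting intervals lay on opposite sides of equal levels, at least 1.2-fold each way, were listed in the same manner. They were thus chosen by the difference given. Without the interval condition, 7 of 55 cytosolic genes (12.7%) and 7.44% of all genes were at least 1.2-fold higher in the pituitary and lower in the ovary. With equal library totals these shares were 1.82% and 5.67%. The ovary minus pituitary log2 fold was -0.96 for RPL11, -0.82 for RPS25, -0.68 for RPS28, -0.64 for RPL3, -0.64 for RPS26, -0.57 for RPS6 and -0.63 for the mitochondrial MRPL16. RPL27A went the other way, with 6.19. For RSL24D1 the ovary minus hypothalamus value was -0.78. With equal library totals the pituitary log2 folds of RPS25, RPS28, RPL3, RPS26, RPS6 and MRPL16 were 0.15, 0.17, 0.25, 0.21, 0.15 and 0.15. All of these lay short of 1.2-fold, as did the hypothalamus value of RSL24D1, 0.23. None of the differences between tissues was tested.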

How the results depend on the processing

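The mitochondrial median of the hypothalamus, 0.02, turned to -0.07 with equal library totals, and no other cytosolic or mitochondrial median changed sign under the alternatives run. Of the values recomputed under the alternatives, 81 stayed within the limits set for them and 7 medians or shares moved past them. Of the counts, 13 became smaller and 5 larger by more than their limit. Scaling to equal library totals moved most: it shifted the median of all genes by -0.09 in the hypothalamus, -0.11 in the pituitary and -0.20 in the ovary. The cytosolic medians became -0.16, 0.027 and -0.67 and the mitochondrial median in the ovary -0.23, while relative to all genes the cytosolic medians were -0.07, 0.14 and -0.47 as before. Under that scaling 3, 5 and 2 ribosomal protein genes were at least 1.2-fold higher in hypothalamus, pituitary and ovary, and 11, 10 and 62 were lower. Among cytosolic genes 9 were lower in the hypothalamus, and 3 were higher and 5 lower in the pituitary. The shares of all genes past 1.2-fold within a tissue were not recomputed for this scaling, so these counts have no share to be set against. A limit of 200 on the mean left 2 cytosolic genes higher in the hypothalamus, 1 lower in the pituitary and 1 higher in the ovary, since it tests fewer genes. With the authors' adjusted p-value of at most 0.05 as a further condition, the counts were 0 higher and 0 lower in hypothalamus and ovary, and 0 higher and 1 lower in the pituitary. The change in the share of reads on all 94 genes was -0.15, 0.09 and -2.22 percentage points in hypothalamus, pituitary and ovary. Without the genes in the top 10 of either library of the tissue, it was 0.38 in the pituitary and -2.29 in the ovary. Without the member gene with most reads it was -2.09 in the ovary. The count test called 0 genes with edgeR and 46 with DESeq2. No paired analysis was possible because each tissue and state has 1 library, other than that count test, which has tissue as a block. Depth limits RPL27A, RPLP2 and RPS21, and the lack of replicate libraries limits every value.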
